A study of Homo sapiens with 12 samples.

Results

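The comparison described here is the interaction of the shSigma knockdown and culture in DU145 cells, that is, the knockdown effect in tumor spheres minus the knockdown effect in adherent cells, computed for every gene from 12 of 12 libraries. It asks which genes responded to the shSigma hairpin in one culture only, or in opposite directions in the cultures. DU145 is an established human prostate cancer line that is androgen receptor negative. The cells carried a lentiviral short hairpin RNA of the knockdown line (shSigma) or a control hairpin (shCtrl). The study's methods give lentiviral transduction and puromycin selection for the stable knockdown lines. How the shCtrl cells were selected is not stated in the sources used here. Adherent cells were grown as bulk cultures in RPMI with fetal bovine serum. Tumor spheres were grown without attachment, on poly-HEMA, in serum-free DMEM-F12 with B-27, insulin, FGF2 and EGF. Each group had 3 replicates. The study's methods list 1 hairpin construct for the stable knockdown lines. The sources used here do not state which of the study's knockdown hairpins the sequenced cells carried or whether a group held several clones. Knockdown effect here means the difference of shSigma from shCtrl cells. Other differences between the lines cannot be told apart from the knockdown, and their part in it was not tested.

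Tumor spheres are used to enrich stem-like cells of a cancer line, because cells that need attachment and serum grow poorly there. Attachment, serum, growth factors and oxygen supply all differ between such cultures, and each is known to act on matrix, adhesion and metabolic genes.

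Library sizes ranged from 16472722 to 26957777 counts, and replicates differed by more than counting noise in every pair (chi-square per gene 2.73 to 43.9, where counting alone gives about 1). The study's methods call the replicates independent, and the labels name no separate cultures, so p-values measure the spread between these libraries. The biological coefficient of variation was 14.3% between adherent replicates and 6.89% between sphere replicates, and adherent shCtrl replicate 1 and adherent shSigma replicate 3 deviated from their group means together across genes. Of the markers of a prostate epithelial line, EPCAM, KRT8, KRT18 and CDH1 were present in all groups, with a summed level of 685 to 2140 CPM (counts scaled to library size). Endothelial, leukocyte and neuroendocrine marker sums were at most 5.16 CPM in any library, and 3 of 5 genes of the androgen receptor program were under 1 CPM in all libraries. Fibroblast markers summed to at most 25.2 CPM, highest in sphere shCtrl cells, with 4 of 5 under 1 CPM in all libraries, and their part in the results was not tested. In such bulk libraries, fewer cells of a type and less RNA per cell cannot be told apart.

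The knockdown effect differed between the cultures for a large share of the genes. Of the 28747 gene identifiers in the table, 14175 had enough counts to be tested, and the interaction passed an adjusted p under 0.05 for 4024 of them (28.4%). The effect was higher in tumor spheres than in adherent cells for 1807 genes (12.7%) and lower for 2217 (15.6%). With an absolute interaction over 1 on the log2 scale as well, 354 genes were higher and 856 lower. The split between directions depended on the genes and libraries admitted, the scaling and the test. There were 2240 higher and 1761 lower without a filter on low counts, and 2238 and 1692 with at least 10 counts in every library. Without adherent shSigma replicate 3 there were 2738 and 1953. DESeq2 size factors gave 2047 and 1998, upper-quartile factors 1773 and 2314, and the DESeq2 test 1888 and 1814. The median interaction of all genes tested was -0.03 on the log2 scale.

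The 4024 genes were sorted by which culture showed an effect of its own, with each culture tested separately. In adherent cells 3447 of 13764 genes rose (25%) and 3237 fell (23.5%), and in tumor spheres 4203 of 13774 rose (30.5%) and 4208 fell (30.6%). Opposite effects, called in both cultures with different signs, were found for 517 genes (3.65% of all genes tested), of which 314 rose in adherent cells and fell in tumor spheres (2.22%) and 203 did the reverse (1.43%). An effect called in adherent cells only was found for 1052 genes, 530 rising (3.74%) and 522 falling (3.68%). An effect called in tumor spheres only was found for 1180 genes, 491 rising (3.46%) and 689 falling (4.86%). Which of these classes was larger depended on the fit, since a single fit for both cultures gave 1284 adherent-only and 965 sphere-only genes. A further 1175 genes moved in the same direction in both cultures by unequal amounts, larger in adherent cells for 788 and larger in tumor spheres for 387, and 100 were called in neither culture.

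A missing call in one culture does not show that nothing happened there, so the interval of the silent culture was read as well. For 418 of the 530 genes that rose in adherent cells only and 475 of the 522 that fell there only, the 95% interval of the sphere effect lay within a 1.5-fold change. The same held in adherent cells for 399 of the 491 genes that rose and 460 of the 689 that fell in tumor spheres only. Some genes were too low to be tested in the silent culture, most of them (69) among those that fell in tumor spheres only. For the opposite class, all shSigma libraries lay on one side of all shCtrl libraries in both cultures for 504 of 517 genes. Over all genes tested, 57.1% were separated in this way in adherent cells, 66% in tumor spheres and 41.6% in both. Genes called in both cultures are likely to be separated in both, so this is no added evidence for opposite effects. Genes of the same direction were separated in both for 772 of 788 and 387 of 387.

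Seen the other way round, the genes with an interaction differed more between cultures in shCtrl cells than in shSigma cells. The difference between tumor spheres and adherent cells was larger in shCtrl cells for 2790 of 4024 such genes (69.3%, against 59.2% of all genes tested), with a median absolute difference of 0.61 on the log2 scale in shCtrl and 0.34 in shSigma cells. Among the genes of opposite effect it was larger in shCtrl cells for 374 of 517 (72.3%). These shares describe the same 4 groups from another side and carry no test of their own.

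The 5 genes named in each class are those with the largest difference in mean log2(CPM + 1). They come from members with an absolute interaction over 1, at least 5 CPM in 1 group and separated libraries. Separation was required in each culture where the effect was called, so it is no further result. Genes that fell in tumor spheres only were led by PLN, CEACAM6, IGFBP3, PTHLH and SOX21-AS1. All 5 were far above the other groups in sphere shCtrl cells alone. PLN (ENSG00000198523, chromosome 6, 118548296 to 118561716) encodes phospholamban, the inhibitor of the SERCA calcium pump of the endoplasmic reticulum. It was measured at 132, 140.5 and 142 CPM in sphere shCtrl libraries and 0.403, 0.212 and 0.795 CPM in sphere shSigma libraries, 294-fold lower. In adherent cells both groups were at the floor of 3 counts or fewer per library, so no adherent fold change is given. The PLN transcript was therefore abundant in 1 of the 4 groups and under 1 CPM in the rest. CEACAM6 (ENSG00000086548, chromosome 19, 41750977 to 41772211) encodes a cell surface glycoprotein of carcinoma cells. It stood at 122, 136 and 122 CPM in sphere shCtrl and 0.907, 0.848 and 0.636 CPM in sphere shSigma libraries, and at most at 0.192 CPM in adherent libraries. It fell in tumor spheres by 7.30 ± 0.19 on the log2 scale (± SE, adjusted p = 3.98e-13), and because it belongs to a family of near-identical genes its counts are less certain. IGFBP3 (ENSG00000146674, chromosome 7, 45912245 to 45921874) encodes the main carrier of insulin-like growth factors. It read 169, 206 and 628 CPM in sphere shCtrl and 5.85, 10.1 and 7.26 CPM in sphere shSigma libraries. Its adherent levels were 18.5, 16.5 and 16.8 CPM in shCtrl and 17.3, 15.7 and 19.5 CPM in shSigma libraries, a log2 fold change of 0.02 ± 0.11. Sphere shCtrl replicate 3 was far above the other two for this gene, and all 3 were above every shSigma library. The interaction of IGFBP3 was -5.46 ± 0.69 (adjusted p = 0.000383), and it stayed called with each library left out.

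PTHLH, the parathyroid hormone-related protein secreted by many carcinomas, and SOX21-AS1, a long noncoding RNA that overlaps SOX21 in the annotation, had the same shape. PTHLH (ENSG00000087494, chromosome 12, 27958084 to 27972733) stood at 44.1, 48.1 and 35.5 CPM in sphere shCtrl libraries and at 1.41, 1.17 and 1.91 CPM in sphere shSigma libraries, 28.5-fold lower, while the adherent effect was -0.21 ± 0.39 at levels of at most 0.592 CPM. SOX21-AS1 (ENSG00000227640, chromosome 13, 94703454 to 94803430) stood at 22, 21.5 and 19.3 CPM and 0.454, 0.106 and 0.371 CPM in the same groups and was too low to be tested in adherent cells, and without a stated use of strand its reads and those of SOX21 cannot be told apart. Each of these genes thus had overlapping or untestable adherent groups. Separated sphere groups were required by the naming rule. Of the 689 genes of this class, 244 had an interaction past 1 on the log2 scale.

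Genes that rose in tumor spheres only were led by IL32, KLRC2, ITPR2, RRAD and COLGALT2. Of these, IL32, ITPR2 and COLGALT2 were low in sphere shCtrl cells alone, while KLRC2 and RRAD were highest in sphere shSigma cells. RRAD was already higher in sphere than in adherent shCtrl cells, by 1.92 on the log2 scale. IL32 (ENSG00000008517, chromosome 16, 3065297 to 3082192) encodes a cytokine that induces other inflammatory mediators. It stood at 34.1, 36.9 and 40.6 CPM in adherent shCtrl, 41.9, 44 and 35.4 CPM in adherent shSigma, 6.73, 8.01 and 8.21 CPM in sphere shCtrl and 53.6, 54.4 and 52.1 CPM in sphere shSigma libraries. Only the sphere groups separated. Its sphere effect was 2.80 ± 0.09 and its interaction 2.68 ± 0.14 (adjusted p = 2.8e-08). ITPR2 (ENSG00000123104, chromosome 12, 26335352 to 26833194) encodes an inositol trisphosphate receptor that releases calcium from the endoplasmic reticulum. It stood at 37.9, 40.2 and 39.7 CPM in adherent shCtrl and 35.8, 33.3 and 38.5 CPM in adherent shSigma libraries. In tumor spheres it stood at 8.14, 7.78 and 8.21 CPM in shCtrl and 33.9, 37.9 and 39.5 CPM in shSigma libraries, a rise of 4.61-fold. Sphere shCtrl cells were the group that stood apart for ITPR2. COLGALT2 (ENSG00000198756, chromosome 1, 183929854 to 184037729) encodes a protein that adds galactose to collagen. The same layout was found at 4.57, 4.25 and 4.64 CPM in sphere shCtrl and 17.1, 18.1 and 17.8 CPM in sphere shSigma libraries against 16.7, 18.6 and 18.8 CPM in adherent shCtrl and 15.1, 17 and 16.7 CPM in adherent shSigma libraries. KLRC2 (ENSG00000205809, chromosome 12, 10426854 to 10442300) encodes a receptor of natural killer cells with near-identical neighbours. It rose from 0.41, 0.607 and 0.302 CPM to 5.39, 4.87 and 6.04 CPM in tumor spheres. RRAD (ENSG00000166592, chromosome 16, 66921685 to 66925535) encodes a small GTPase that binds calcium channels and rose from 6.97, 4.97 and 6.7 CPM to 30.5, 21.4 and 21.9 CPM in tumor spheres. Neither gene's groups separated in adherent cells, where RRAD ranged from 0.579 to 2.6 CPM over the 6 libraries.

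Genes that rose in adherent cells and fell in tumor spheres were led by CEMIP, P2RY6, NDRG1, LINC02274 and STEAP4. Adherent shCtrl was the lowest group for CEMIP, P2RY6 and STEAP4, and sphere shSigma was the lowest for NDRG1. CEMIP (ENSG00000103888, chromosome 15, 80779343 to 80951776), which degrades hyaluronan of the pericellular matrix, had the largest interaction of these, -7.20 ± 0.23 (adjusted p = 2.36e-10). It stood at 0.653, 0.931 and 0.789 CPM in adherent shCtrl and 21.2, 18.5 and 23.6 CPM in adherent shSigma libraries, 26.7-fold higher. In tumor spheres it stood at 114, 106 and 146 CPM in shCtrl and 21.9, 22.7 and 21.6 CPM in shSigma libraries, 5.53-fold lower. The shSigma means of the cultures, 21.1 and 22.0 CPM, were thus reached from opposite sides. P2RY6 (ENSG00000171631, chromosome 11, 73264498 to 73305103) encodes a receptor for extracellular UDP. It rose 24-fold in adherent cells, from 1.96, 2.11 and 2.33 CPM to 52.5, 58.2 and 42.9 CPM, and fell 2.04-fold in tumor spheres, from 43.8, 36.1 and 51.7 CPM to 22.1, 22.3 and 20.2 CPM. NDRG1 (ENSG00000104419, chromosome 8, 133237175 to 133302022) is a gene induced by hypoxia and metal shortage. It rose from 47.2, 47 and 51.8 CPM to 325, 326 and 342 CPM in adherent cells and fell from 81.2, 80.2 and 143 CPM to 37.9, 42.4 and 36.8 CPM in tumor spheres, where shCtrl replicate 3 was the highest. STEAP4 (ENSG00000127954, chromosome 7, 88270892 to 88306894) encodes a metalloreductase that feeds iron and copper uptake. It changed by 2.63 ± 0.22 in adherent cells and -2.77 ± 0.18 in tumor spheres on the log2 scale. LINC02274 (ENSG00000258586, chromosome 14, 73822559 to 73830135) is a long noncoding RNA. It changed by 1.87 ± 0.22 and -3.60 ± 0.45. Groups did not overlap in either culture for any of the 5, which the naming rule required.

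The reverse pattern, a fall in adherent cells and a rise in tumor spheres, was led by FBLN1, SEMA3C, TFPI2, CCN2 and CCN1, all of them genes of secreted proteins. FBLN1 (ENSG00000077942, chromosome 22, 45502238 to 45601135) encodes fibulin-1, a matrix glycoprotein. It stood at 142, 189.7 and 263 CPM in adherent shCtrl and 54.7, 64.4 and 37.3 CPM in adherent shSigma libraries, and at 57.9, 44.9 and 54.2 CPM in sphere shCtrl and 138, 156 and 148 CPM in sphere shSigma libraries. Adherent shCtrl replicates were spread for this gene, yet each of them was above each shSigma library. SEMA3C (ENSG00000075223, chromosome 7, 80742538 to 80922359) encodes a secreted semaphorin that signals through neuropilins and plexins. It fell 1.48-fold in adherent cells and rose 7.04-fold in tumor spheres, with sphere shCtrl the low group at 32.1, 29.5 and 30.7 CPM against 204, 225 and 222 CPM in sphere shSigma libraries. TFPI2 (ENSG00000105825, chromosome 7, 93885396 to 93890753) encodes an inhibitor of serine proteases in the matrix. It changed by -1.18 ± 0.09 and 1.84 ± 0.08 on the log2 scale in adherent cells and tumor spheres. CCN1 (ENSG00000142871, chromosome 1, 85580761 to 85584589) and CCN2 (ENSG00000118523, chromosome 6, 131948176 to 131951372) encode matricellular proteins that bind integrins and are standard targets of the YAP and TEAD transcription factors. CCN1 stood at 716, 693 and 707 CPM in adherent shCtrl, 261, 283 and 294 CPM in adherent shSigma, 75.2, 76.8 and 86.8 CPM in sphere shCtrl and 179, 181 and 186 CPM in sphere shSigma libraries. Adherent cells were above tumor spheres in both lines, and the gap was much narrower in shSigma cells. CCN2 changed by -0.64 ± 0.09 (adjusted p = 0.000626) in adherent cells and by 2.18 ± 0.12 (adjusted p = 1.25e-08) in tumor spheres.

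**Figure D1:**
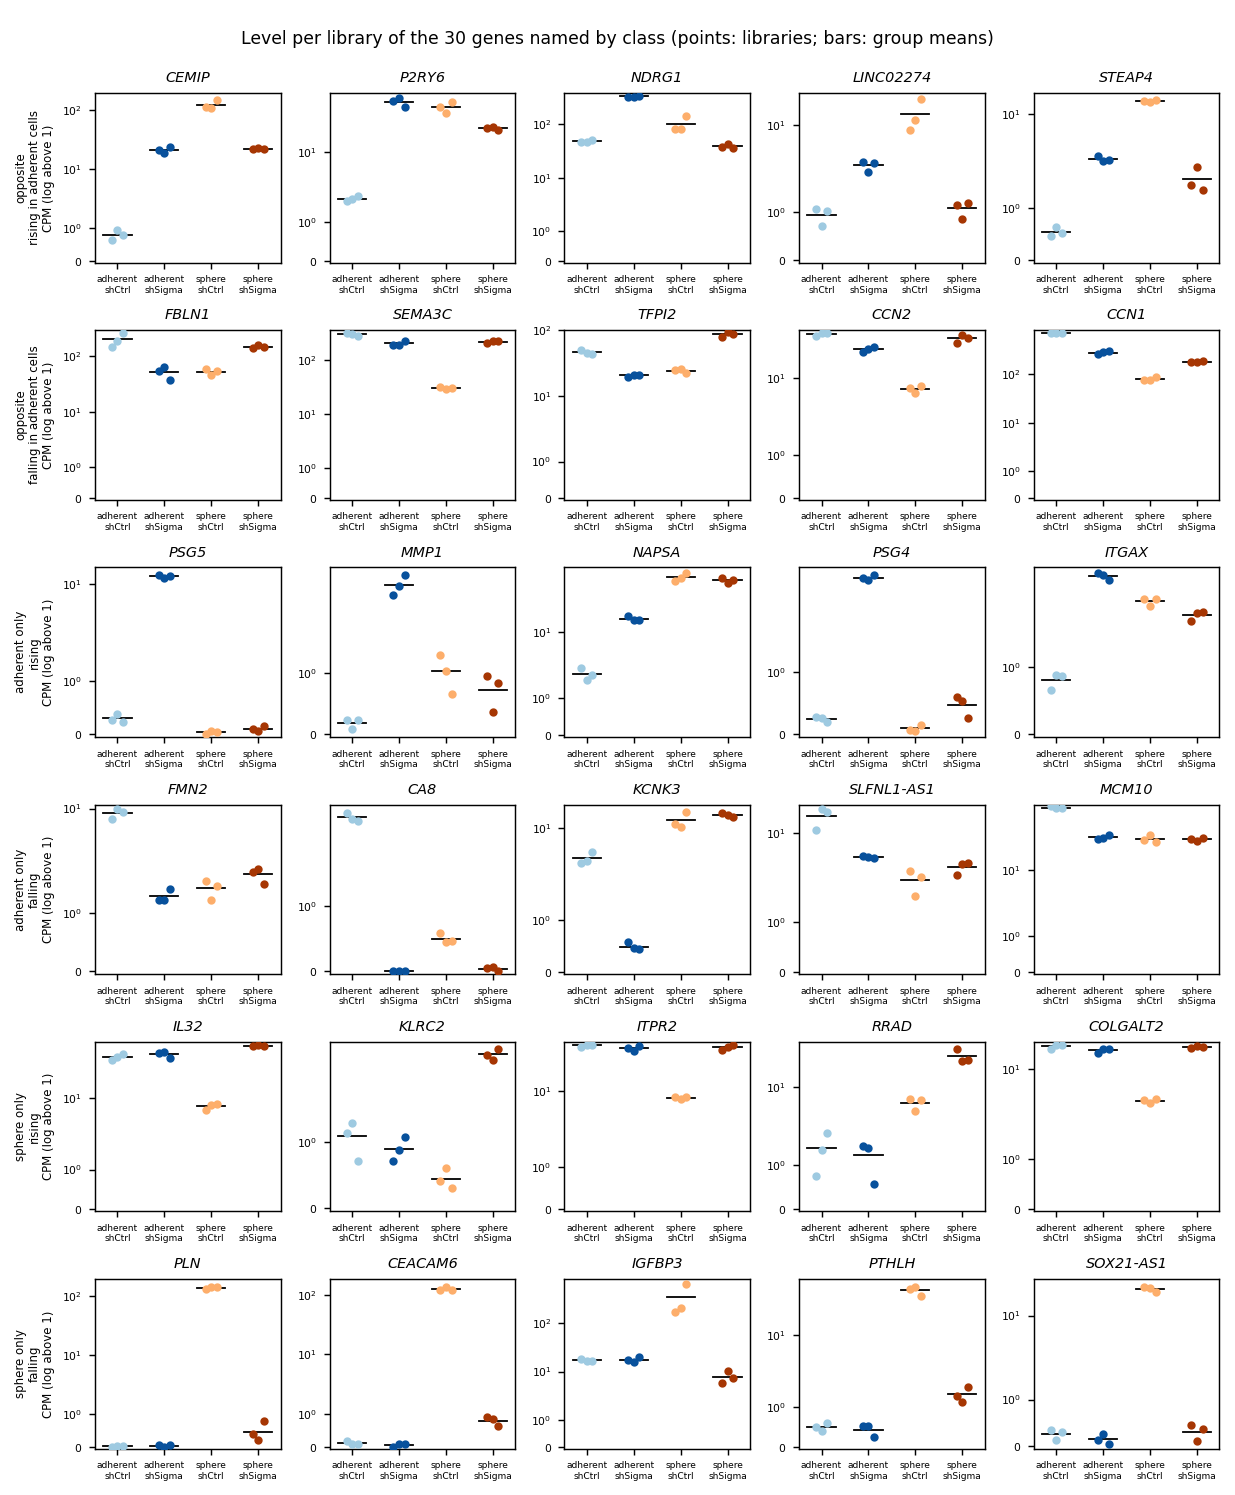
Level of the 30 genes named by class in each of the 12 libraries, in CPM on an axis that is linear below 1 CPM and logarithmic above it, with 1 point per library and a bar at the mean of each group. Sphere shCtrl stands apart for all 5 genes that fell in tumor spheres only (bottom row), and in the opposite rows the knockdown raises one culture and lowers the other.

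Genes that rose in adherent cells only were led by PSG5, MMP1, NAPSA, PSG4 and ITGAX, which were low in adherent shCtrl cells. MMP1 (ENSG00000196611, chromosome 11, 102789401 to 102798160) encodes the interstitial collagenase. It stood at 0.23, 0.0846 and 0.237 CPM in adherent shCtrl and 5.24, 6.3 and 8.01 CPM in adherent shSigma libraries, 35.4-fold higher. Its sphere levels of 1.46, 1.05 and 0.655 CPM in shCtrl and 0.958, 0.371 and 0.848 CPM in shSigma libraries overlapped. NAPSA (ENSG00000131400, chromosome 19, 50358472 to 50365830) encodes an aspartic protease. It stood at 2.8, 1.86 and 2.25 CPM and 17.1, 14.7 and 15.2 CPM in the adherent groups and at 58.1, 64.9 and 76.5 CPM and 64.9, 53.6 and 59.1 CPM in the sphere groups. Tumor spheres of either line were thus above adherent cells for NAPSA, and only the adherent groups separated. ITGAX (ENSG00000140678, chromosome 16, 31355134 to 31382999) encodes an integrin alpha chain of myeloid cells. It rose 7.28-fold in adherent cells, while its sphere effect of -0.38 ± 0.16 had an adjusted p of 0.0515, although all sphere shSigma libraries were below all sphere shCtrl libraries. The placental glycoprotein genes PSG5 (ENSG00000204941, chromosome 19, 43166256 to 43186536) and PSG4 (ENSG00000243137, chromosome 19, 43192702 to 43207299) rose 40.9-fold and 29.4-fold in adherent cells, to 12.3, 11.7 and 12.2 CPM and 7, 6.76 and 7.43 CPM. Both were too low to be tested in tumor spheres and belong to a family of near-identical genes, and neither is shown by these data to be unaffected there. For PSG4 all sphere shSigma libraries were above the sphere shCtrl libraries, which were at or under the floor of 3 counts per library, at least 2.84-fold higher. The interaction call of PSG5 (adjusted p = 0.0446) was lost with a replicate block shared by the groups, the only block checked for single genes. It was also lost without adherent shCtrl replicate 3, adherent shSigma replicates 1 or 2, sphere shCtrl replicates 2 or 3, or sphere shSigma replicates 1 or 2. That of PSG4 (adjusted p = 0.0234) was lost without replicate 3 of either sphere group, its interaction ranging from -2.76 to -1.90 over the libraries left out.

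Genes that fell in adherent cells only were led by FMN2, CA8, KCNK3, SLFNL1-AS1 and MCM10. FMN2 (ENSG00000155816, chromosome 1, 240014348 to 240475187) encodes a formin that nucleates actin filaments. It stood at 8.03, 9.86 and 9.35 CPM in adherent shCtrl and 1.33, 1.33 and 1.69 CPM in adherent shSigma libraries, while sphere shCtrl (2.05, 1.33 and 1.81 CPM) and sphere shSigma libraries (2.47, 2.65 and 1.91 CPM) overlapped. Its low adherent shSigma level was close to that of both sphere groups. KCNK3 (ENSG00000171303, chromosome 2, 26692722 to 26733420) encodes a leak potassium channel. It fell 9.67-fold in adherent cells, from 4.22, 4.4 and 5.56 CPM to 0.571, 0.461 and 0.434 CPM, and stood at 10.3 CPM or more in all sphere libraries of both lines. CA8 (ENSG00000178538, chromosome 8, 60185412 to 60281400) encodes a catalytically inactive carbonic anhydrase that binds the inositol trisphosphate receptor. It stood at 6.18, 5.5 and 5.21 CPM in adherent shCtrl libraries and at 0 counts in all adherent shSigma libraries, at least 38.3-fold lower against a floor of 3 counts per library. Sphere shCtrl levels were 0.586, 0.442 and 0.454 CPM and the sphere shSigma group was also at the floor, at least 3.16-fold lower, so CA8 was too low in tumor spheres for a test of its own and is not shown to be confined to adherent cells. Its interaction call (adjusted p = 0.0101) was lost without sphere shSigma replicate 1 or 2. MCM10 (ENSG00000065328, chromosome 10, 13161558 to 13211110) encodes a protein that loads the replicative helicase and polymerase alpha at origins. It fell 2.82-fold in adherent cells, from 91.7, 85.5 and 86.4 CPM to 29.5, 30.5 and 33.6 CPM, and stood between 26.8 and 33.6 CPM in all 6 sphere libraries. The adherent shSigma level of MCM10 was at the sphere level. SLFNL1-AS1 (ENSG00000281207, chromosome 1, 41014590 to 41043890) is an antisense transcript that overlaps SCMH1 and SLFNL1. It fell 2.89-fold in adherent cells, and without a stated use of strand its reads and theirs cannot be told apart.

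Beyond single genes, 41 gene lists were counted, with 1508 of 1509 members matched to the table. A list's members are described by how many were called in each direction beside the share of all genes tested, 12.7% with a higher and 15.6% with a lower effect in tumor spheres. Of list members, higher and lower refer to the interaction and not to the level, and the median is given with its range over 16 alternative settings where it moved by over 1.5 times. The lists that stood farthest on the higher side were mitosis (36 of 43 members), DNA replication (31 of 49), YAP and TEAD targets (17 of 26), cytokines and NF-kappaB targets (17 of 29) and homologous recombination and Fanconi repair (15 of 29). On the lower side stood epithelial identity and keratins (23 of 29), hypoxia targets (20 of 27), interferon-stimulated genes (25 of 42) and glycolysis (11 of 23). In 12 lists no member was called in 1 direction by edgeR's quasi-likelihood test. At an unadjusted p under 0.05, 0 members went that way for DNA replication, mitosis, nucleolar ribosome assembly and mitochondrial DNA transcripts (lower) and for glycolysis and interferon-stimulated genes (higher). At that level 1 went that way for homologous recombination, endoplasmic reticulum chaperones, heat shock proteins, the proteasome (lower) and the epithelial list (higher), and 2 for cholesterol synthesis (lower). DESeq2 called 1 in cholesterol synthesis and 0 in the others.

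**Figure D2:**
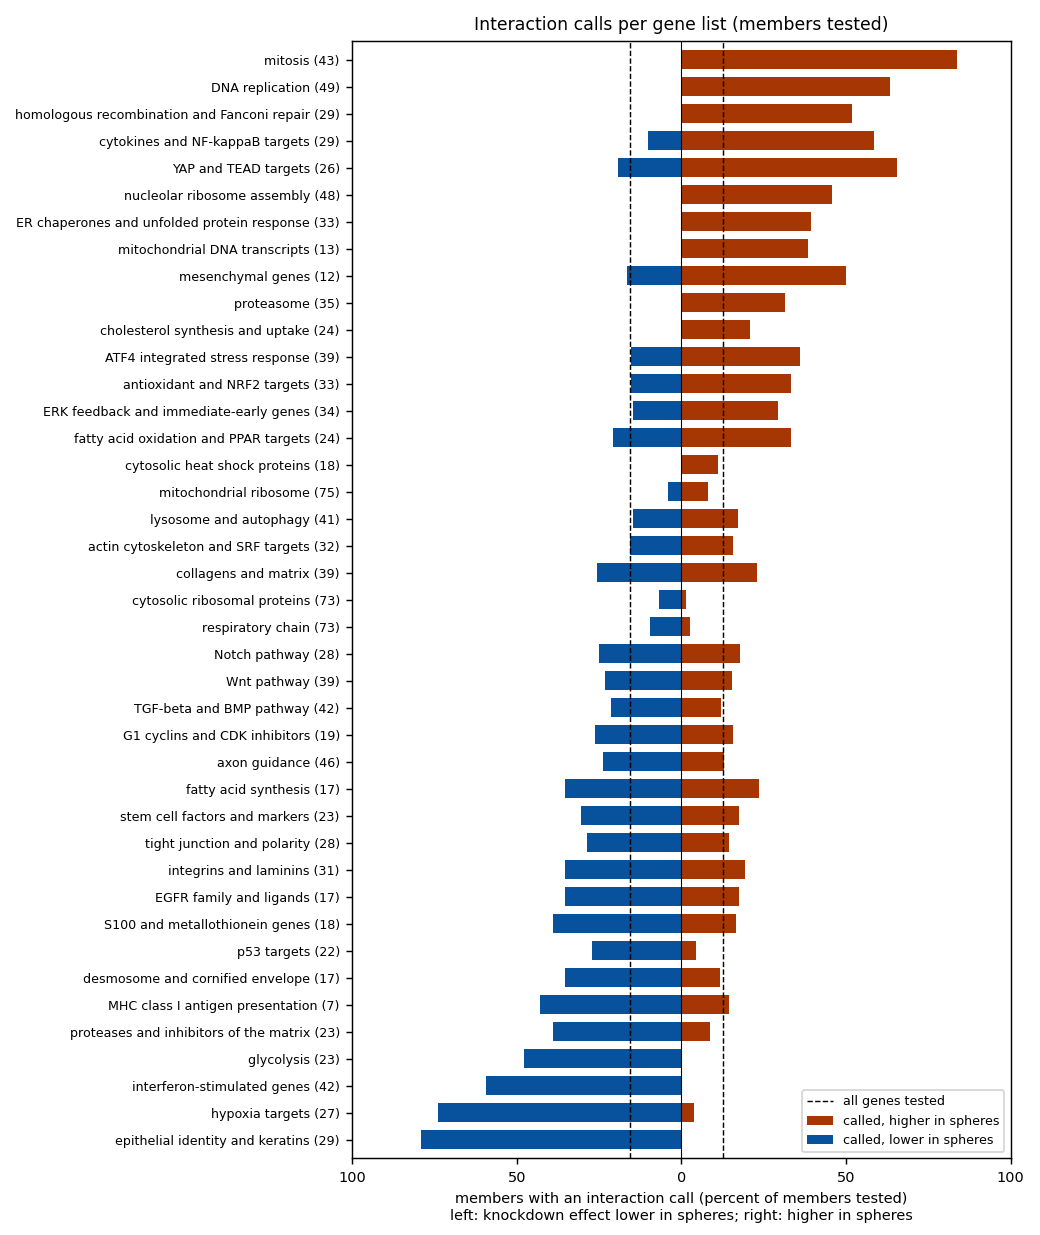
Share of each list's tested members with an interaction call, with a higher knockdown effect in tumor spheres to the right and a lower one to the left, in percent, with dashed lines at the share of all genes tested. Mitosis reaches 83.7% on the higher side and epithelial identity and keratins 79.3% on the lower side, against 12.7% and 15.6% of all genes.

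Epithelial identity and keratins had the lowest median interaction of the 41 lists. Of its 29 members tested, 23 were lower and 0 higher, and the median interaction was -1.08 on the log2 scale. In tumor spheres 6 of 29 members rose and 20 fell, whereas in adherent cells 9 of 25 rose and 11 fell. The mean level of the list, given as log2(CPM + 1) relative to each member's mean over the 12 libraries, was 1.03, 0.99 and 0.98 in the sphere shCtrl replicates and -0.25, -0.21 and -0.27 in the sphere shSigma replicates. In adherent cells it was -0.47, -0.37 and -0.22 in shCtrl and -0.37, -0.33 and -0.50 in shSigma replicates. One group, sphere shCtrl, thus stood above the other 3, which lay close together. GRHL2 (ENSG00000083307, chromosome 8, 101492439 to 101669726) encodes a transcription factor that maintains epithelial identity. It stood at 36.4, 36 and 33.8 CPM in sphere shCtrl libraries and at the floor in sphere shSigma libraries, at least 226-fold lower. In adherent cells it stood at 1.19, 1.14 and 0.947 CPM in shCtrl libraries and at the floor in shSigma libraries, at least 7.43-fold lower. RAB25 (ENSG00000132698, chromosome 1, 156061160 to 156070504), a GTPase of epithelial vesicle recycling, was at the floor in all groups but sphere shCtrl, which held 2.28, 1.71 and 2.02 CPM and was at least 12.8-fold above sphere shSigma. E-cadherin (CDH1), one of the markers chosen for the line, fell by 1.16 on the log2 scale in adherent cells and by 4.71 in tumor spheres, from a mean of 727 ± 46.3 CPM (SD, n = 3) to 27.8 ± 3.34 CPM. The luminal keratins KRT8 and KRT18, also chosen markers, moved in opposite directions, by 0.82 ± 0.14 and 0.65 ± 0.07 in adherent cells and by -0.21 ± 0.07 and -0.44 ± 0.05 in tumor spheres. Members of one list therefore differed in kind, from a fall in both cultures for GRHL2, CDH1 and EPCAM (interaction -0.38 ± 0.12) to a crossing for the keratins.

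Junction lists were less one-sided. Of 28 tight junction and polarity genes, 4 were higher and 8 lower (median -0.10, from -0.27 to -0.0027 over the settings), and a pair of claudins had interactions of opposite sign. CLDN4 (ENSG00000189143, chromosome 7, 73799542 to 73832690) encodes a barrier-forming claudin. It rose 13.4-fold in adherent cells, from 1.8, 2.2 and 2.21 CPM to 28.8, 31.2 and 23.5 CPM, and 1.95-fold in tumor spheres, from 49.5, 52.8 and 44.9 CPM to 109, 89.6 and 87.5 CPM. CLDN1 (ENSG00000163347, chromosome 3, 190305707 to 190322446) fell from 305, 301 and 279 CPM to 124, 125 and 139.9 CPM in adherent cells and rose from 114, 113 and 121 CPM to 169.6, 163 and 166 CPM in tumor spheres. In the desmosome and cornified envelope list, 2 of 17 members were higher and 6 lower (median -0.43), among them the plaque proteins desmoplakin (DSP, interaction -1.15 ± 0.14) and periplakin (PPL, -1.23 ± 0.21).

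Mesenchymal genes moved the other way. Of 12 tested, 6 were higher and 2 lower by interaction (median 0.67), 7 of 11 rose in adherent cells and 7 of 10 rose in tumor spheres. ZEB1 (ENSG00000148516, chromosome 10, 31318495 to 31529814) and ZEB2 (ENSG00000169554, chromosome 2, 144364364 to 144521057) encode repressors of epithelial genes, E-cadherin among them. ZEB1 stood at 1.76, 1.33 and 2.07 CPM in sphere shCtrl libraries and 27.9, 28.9 and 30.7 CPM in sphere shSigma libraries, 17-fold higher. In adherent cells it stood at 22.8, 21.2 and 21.9 CPM in shCtrl and 28.7, 28 and 37 CPM in shSigma libraries. Sphere shCtrl cells were the low group, and sphere shSigma cells reached the adherent range. ZEB2 rose 2.31-fold in adherent cells and 25-fold in tumor spheres, to 6.65, 6.36 and 5.83 CPM from 0.176, 0.276 and 0.302 CPM. Endoglin (ENG), a TGF-beta coreceptor, was lower by interaction but stood at or under 0.714 CPM in all libraries, and its call was lost without adherent shSigma replicate 1, where the count of lower members was 1.

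**Figure D3:**
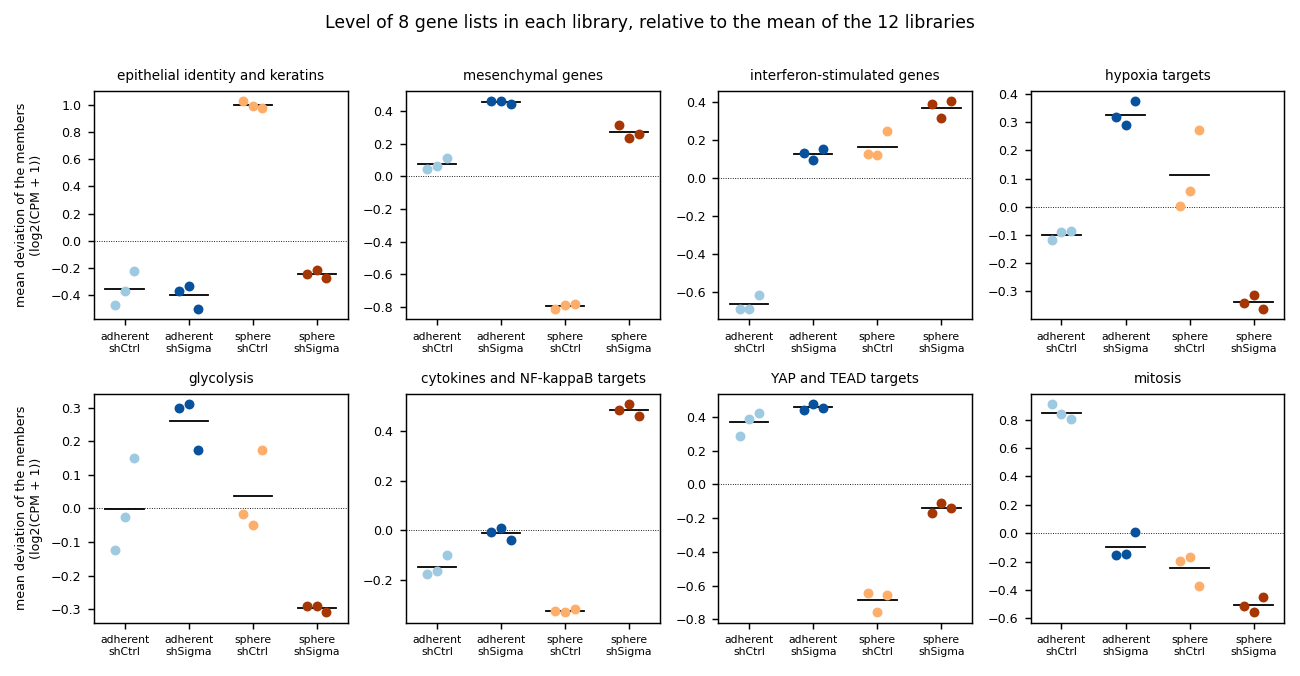
Level of 8 gene lists in each library, as the mean over members of log2(CPM + 1) minus the member's mean over the 12 libraries, with 1 point per library and a bar at the group mean. Epithelial genes are highest and mesenchymal genes lowest in sphere shCtrl libraries, and interferon-stimulated genes are lowest in adherent shCtrl libraries.

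Matrix, integrin and protease genes split by member. Of 39 collagens and matrix genes, 9 were higher and 10 lower (median -0.28, from -0.32 to -0.016 over the settings). THBS1 (ENSG00000137801, chromosome 15, 39581079 to 39599466) encodes the matricellular protein thrombospondin-1. It rose 1.49-fold in adherent cells and 6.69-fold in tumor spheres, from 26.1, 24.5 and 26.4 CPM to 166, 177 and 173 CPM there. Integrins and laminins had 6 higher and 11 lower of 31, the lower count being 7 without adherent shCtrl replicate 2, sphere shCtrl replicate 3 or sphere shSigma replicate 1, and the median interaction of -0.05 turned positive in 6 of 16 settings. ITGA2 (ENSG00000164171, chromosome 5, 52989340 to 53094779) encodes the alpha chain of a collagen receptor. It stood at 254, 242 and 223 CPM in sphere shCtrl libraries and at 42, 51.6 and 48.3 CPM in sphere shSigma libraries. Its adherent levels were 102, 102 and 97.2 CPM in shCtrl and 76.3, 74.4 and 88 CPM in shSigma libraries, so a small adherent fall went with a 5.06-fold sphere fall. ITGB4 (interaction -1.84 ± 0.58, adjusted p = 0.0425) and ITGA11 (-1.96 ± 0.69, adjusted p = 0.0447) were called by a narrow margin. ITGB4 kept its call only without adherent shCtrl replicate 3 or adherent shSigma replicate 3, and ITGA11 kept its call only without adherent shCtrl replicate 1, sphere shCtrl replicate 1 or sphere shSigma replicate 3. Both lost it with the replicate block, and ITGA11 also by DESeq2. Among proteases and inhibitors of the matrix, 2 of 23 were higher and 9 lower (median -0.82, from -0.83 to -0.32 over the settings). SERPINB5 (ENSG00000206075, chromosome 18, 63476958 to 63505085) encodes maspin, a serpin of epithelial cells. It stood at 16.1, 16.8 and 16.3 CPM in sphere shCtrl libraries and at 1.66 to 2.37 CPM in all libraries of the other 3 groups. ADAM8 (ENSG00000151651, chromosome 10, 133262420 to 133276868) encodes a membrane-anchored protease. It rose 34.1-fold in adherent cells and 7.02-fold in tumor spheres, with adherent shSigma replicate 3 (14.5, 14.6 and 7.53 CPM in replicates 1 to 3) below the other replicates.

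Targets of YAP and TEAD, which respond to attachment and cell spreading, were higher by interaction for 17 of 26 members and lower for 5 (median 0.54), the lower count being 3 without sphere shCtrl replicate 3. In adherent cells 9 of 26 rose and 11 fell, and in tumor spheres 15 rose and 5 fell. CCN2 and CCN1, described above, had the largest interactions on the higher side. TGFB2, a TGF-beta ligand of the same list, stood at 2.52, 2.65 and 3.17 CPM in sphere shCtrl and 8.77, 12.2 and 9.38 CPM in sphere shSigma libraries with an adherent effect of -0.25 ± 0.10. TNNT2, cardiac troponin T, went the other way (interaction -3.63 ± 0.85), at the floor in adherent shSigma libraries, and its call was lost without adherent shSigma replicate 3. The TEAD core motif GGAATG, searched on both strands, was held by 11.9% of 27305 promoters of 250 bases before a RefSeq start, by 9.23% of the promoters of genes tested and by 6 of the 19 list members with a promoter in the table (31.6%). The CCN2 promoter (chr6:131951373-131951622, GRCh38.p14, minus strand) is shown because it held 3 copies and belongs to the list member of largest interaction among those with the motif whose effect was called in one culture or opposite, with the motif in capitals on either strand.
CCN2: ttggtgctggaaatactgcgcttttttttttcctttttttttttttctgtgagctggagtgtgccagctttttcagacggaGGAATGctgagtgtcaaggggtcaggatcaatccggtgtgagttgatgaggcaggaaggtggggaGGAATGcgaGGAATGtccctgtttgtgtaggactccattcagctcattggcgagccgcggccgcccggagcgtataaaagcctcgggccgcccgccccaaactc
A match describes these letters only. Of the called list members with a promoter, 6 of 17 held the TEAD core (35.3%). The lists searched here and below hold known targets, so a share above that of all promoters does not bear on the interaction. Actin cytoskeleton and SRF targets, which respond to the same cell tension, had 5 of 32 members higher and 5 lower. Each was 15.6% of members, against 12.7% and 15.6% of all genes. Their median was 0.01, from -0.030 to 0.14 over the settings, with a changed sign in 2 of 16. The lower count fell to 3 without sphere shCtrl replicate 2, sphere shSigma replicate 1 or sphere shSigma replicate 3. FHL2, a LIM-domain cofactor, rose from 31.2, 34.1 and 32.3 CPM to 66.9, 64.6 and 67.3 CPM in adherent cells and fell from 80.8, 80.8 and 80.1 CPM to 35.2, 36.2 and 35.8 CPM in tumor spheres. PFN1, profilin-1, had an interaction of 0.52 ± 0.10. ACTA2, smooth muscle actin, rose 2.29-fold in adherent cells at levels of at most 2.07 CPM, and its interaction was not called by DESeq2.

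Hypoxia targets were lower by interaction for 20 of 27 members and higher for 1 (median -0.76). In adherent cells 18 of 27 rose and 5 fell, and in tumor spheres 4 rose and 13 fell. These genes are the classic targets of hypoxia-inducible factors. NDRG1, described above, was joined by STC1, a secreted glycoprotein of calcium and phosphate balance. It rose from 30.1, 29 and 27.4 CPM to 51.3, 51.2 and 60.3 CPM in adherent cells and fell from 35.4, 38.8 and 61.2 CPM to 7.46, 10.3 and 8.85 CPM in tumor spheres. LOX (ENSG00000113083, chromosome 5, 122063195 to 122078413) encodes the lysyl oxidase that crosslinks collagen and elastin. It stood at 8.56, 9.52 and 8.52 CPM in adherent shCtrl and 58, 62.2 and 68.3 CPM in adherent shSigma libraries, 7.08-fold higher. Its sphere levels of 1.41, 2.21 and 4.49 CPM and 3.88, 3.92 and 4.45 CPM overlapped. ANGPTL4, a secreted inhibitor of lipoprotein lipase, was the exception, falling 14.3-fold in adherent cells and 4.11-fold in tumor spheres. The core of the hypoxia response element, ACGTG, was found on either strand in 18.7% of all promoters, 23.1% of promoters of genes tested and 14 of 22 promoters of list members (63.6%). The LOX promoter (chr5:122078260-122078509, GRCh38.p14, minus strand) is shown as an example that held 4 matches, in capitals. LOX is a list member whose effect was called in one culture or opposite. Its interaction of -2.25 was not the largest of the list. The promoters of NDRG1 (-4.15) and STC1 (-3.26), with larger interactions, are not shown.
LOX: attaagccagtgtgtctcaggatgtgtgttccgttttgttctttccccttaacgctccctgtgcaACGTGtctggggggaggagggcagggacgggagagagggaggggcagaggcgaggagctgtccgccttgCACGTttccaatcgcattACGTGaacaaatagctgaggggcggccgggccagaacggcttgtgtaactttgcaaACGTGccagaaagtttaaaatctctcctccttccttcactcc
Glycolysis, which shares its regulation with these targets, had 11 of 23 members lower and 0 higher (median -0.46), with 8 rising and 1 falling in adherent cells and 4 rising and 12 falling in tumor spheres. HK2 (ENSG00000159399, chromosome 2, 74834127 to 74893359) encodes the hexokinase that commits glucose. It stood at 66.6, 62.3 and 72.3 CPM in sphere shCtrl and 25.7, 30.7 and 28.8 CPM in sphere shSigma libraries, 2.36-fold lower. The adherent groups, at 54.5, 55.7 and 58.6 CPM and 57.8, 60.8 and 64.5 CPM, differed by 0.12 ± 0.08 on the log2 scale. PFKFB4, a regulator of phosphofructokinase, and SLC2A3, a glucose transporter, were of opposite effect, rising 1.76-fold and 2.63-fold in adherent cells and falling 2.54-fold and 4.98-fold in tumor spheres.

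Interferon-stimulated genes are induced by interferons and form the antiviral program of epithelial cells. Of 42 tested, 25 were lower by interaction and 0 higher (median -0.70), the count of higher members being 2 without adherent shSigma replicate 3. In adherent cells 27 of 40 rose and 2 fell, against 25% and 23.5% of all genes. In tumor spheres 16 of 41 rose and 10 fell, against 30.5% and 30.6% of all genes. Of the called members, 11 rose in both cultures by a larger amount in adherent cells and 5 were of opposite effect. OAS1 (ENSG00000089127, chromosome 12, 112905856 to 112933219) encodes a protein that makes the activator of RNase L. It stood at 0.115, 0.127 and 0.158 CPM in adherent shCtrl, 0.762, 0.563 and 0.579 CPM in adherent shSigma, 12.4, 12.3 and 15.1 CPM in sphere shCtrl and 1.81, 2.76 and 2.12 CPM in sphere shSigma libraries. It rose 4.76-fold in adherent cells and fell 5.94-fold in tumor spheres. The adherent rise took place at levels of at most 0.762 CPM, and groups did not overlap in either culture. IFITM1 (ENSG00000185885, chromosome 11, 310041 to 315272) encodes a membrane protein that blocks virus entry. It stood at 0.461, 0.381 and 0.316 CPM and 1.24, 1.13 and 2.07 CPM in adherent shCtrl and shSigma libraries and at 1.64, 2.15 and 2.62 CPM and 0.857, 0.954 and 0.901 CPM in sphere shCtrl and shSigma libraries. OAS2 was at the floor in adherent shCtrl libraries, at least 5.77-fold above it in adherent shSigma libraries, and had a sphere effect of -0.31 ± 0.31. A pattern of the interferon response element, GAAA followed after any 2 bases by GAAA, lay on either strand in 3.07% of all promoters, 2.16% of promoters of genes tested and 19 of 33 promoters of list members (57.6%). Among called members it lay in 11 of 18 promoters (61.1%). The IFITM1 promoter (chr11:313790-314039, GRCh38.p14, plus strand) is shown as an example, with its match in capitals.
IFITM1: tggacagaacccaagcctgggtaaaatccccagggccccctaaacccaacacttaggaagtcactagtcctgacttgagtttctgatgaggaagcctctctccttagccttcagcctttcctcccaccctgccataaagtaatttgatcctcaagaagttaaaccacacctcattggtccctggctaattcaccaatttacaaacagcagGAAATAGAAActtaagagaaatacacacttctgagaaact
MHC class I antigen presentation, a program with the same inducers, had only 7 members above the filter, with 1 higher and 3 lower (median -0.63, from -0.67 to -0.31 over the settings). NLRC5, the activator of these genes, rose 2.28-fold in adherent cells. B2M, the invariant light chain, had a sphere effect of -0.41 ± 0.07 and an adherent effect of 0.24 ± 0.11. ERAP1, a peptide trimming enzyme, had a sphere effect of 0.82 ± 0.06 and an adherent effect of 0.04 ± 0.09.

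Cytokines and NF-kappaB targets showed the reverse. Of 29 tested, 17 were higher by interaction and 3 lower (median 0.81). In tumor spheres 21 rose and 5 fell, and in adherent cells 12 rose and 10 fell. CXCL3 (ENSG00000163734, chromosome 4, 74036589 to 74038807) encodes a neutrophil-attracting chemokine. It rose from 0.761, 0.939 and 0.907 CPM to 5.9, 4.56 and 4.5 CPM in tumor spheres, where the groups did not overlap, and stood at 1.77, 1.44 and 1.54 CPM and 1.71, 1.13 and 1.54 CPM in adherent shCtrl and shSigma libraries. CCL20 (ENSG00000115009, chromosome 2, 227805739 to 227817564) encodes a chemokine for lymphocytes and dendritic cells. It fell from 5.41, 4.19 and 3.71 CPM to 1.24, 1.02 and 1.11 CPM in adherent cells and had a sphere effect of 0.34 ± 0.18 (adjusted p = 0.123). IL32, described above, had the largest interaction on the higher side. An inhibitor and a subunit of the pathway, named after their values were seen, both rose in tumor spheres. NFKBIA, the inhibitor of NF-kappaB, had a sphere effect of 1.15 ± 0.07 and an adherent effect of -0.12 ± 0.07 that was not called. RELB, an NF-kappaB subunit, had effects of 1.37 ± 0.16 and -0.05 ± 0.15, the second not called.

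Cell division genes had interaction calls in 1 direction, with a higher effect in tumor spheres, and more of them fell in adherent cells than in tumor spheres. All 36 called members of the mitosis list (43 tested, median 0.67) and all 31 of the DNA replication list (49 tested, median 0.59) were higher by interaction, as were 15 of 29 homologous recombination and Fanconi genes (median 0.50). In adherent cells 40 mitosis, 40 replication and 22 repair genes fell and 0 rose, whereas in tumor spheres 28, 28 and 14 fell and 4, 6 and 6 rose. The opposite class held 3, 2 and 4 members of these lists. ASPM (ENSG00000066279, chromosome 1, 197084121 to 197146694) encodes a spindle pole protein. It stood at 194, 194 and 185 CPM and 139, 137 and 157 CPM in the adherent shCtrl and shSigma libraries and at 64.4, 60.8 and 51.4 CPM and 96.1, 99 and 107 CPM in the sphere libraries. BRCA2 (ENSG00000139618, chromosome 13, 32315086 to 32400268) encodes a protein of homologous recombination. It stood at 65.4, 66.9 and 63 CPM and 32, 29.9 and 35.3 CPM in adherent libraries and 30.8, 28.7 and 27.4 CPM and 40.1, 38.1 and 41.7 CPM in sphere libraries. Both fell in adherent cells and rose in tumor spheres without overlap, starting from a sphere shCtrl level below the adherent shCtrl level. The kinetochore gene CENPF (interaction 1.14 ± 0.10), the helicase gene BLM (1.15 ± 0.14) and BRCA1 (1.13 ± 0.11) were of the same kind, and the anaphase activator CDC20 (1.13 ± 0.10) fell in both cultures. Among G1 cyclins and CDK inhibitors 3 of 19 were higher and 5 lower (median -0.04, whose sign changed in 9 of 16 settings). The lower count was 3 without any one library other than adherent shCtrl replicate 1 or sphere shCtrl replicate 3. The higher count was 5 without adherent shCtrl replicate 3 and 6 without adherent shSigma replicate 3. CDKN1A (ENSG00000124762, chromosome 6, 36676460 to 36687337) encodes the CDK inhibitor p21. It stood at 47.8, 42.5 and 46.2 CPM in sphere shCtrl and 28, 26.1 and 22.4 CPM in sphere shSigma libraries, 1.78-fold lower, with an adherent effect of 0.25 ± 0.10 (adjusted p = 0.0686). The repressor gene E2F7 (interaction 0.88 ± 0.12) fell in both cultures, by more in adherent cells. For its relative E2F8 (1.13 ± 0.17), a fall was called in adherent cells only.

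Nucleolar, proteasome and endoplasmic reticulum lists were also one-sided, by smaller amounts. Of 48 nucleolar ribosome assembly genes, 22 were higher by interaction and 0 lower (median 0.40), and 15 of these fell in adherent cells only. EBNA1BP2 (ENSG00000117395, chromosome 1, 43164175 to 43270936) encodes a factor of large subunit assembly. It fell from 178, 149.6 and 155 CPM to 69.3, 71.6 and 78.1 CPM in adherent cells and stood at 62, 66.9 and 71.5 CPM and 66.5, 61 and 64.3 CPM in the sphere groups. UTP20 and MRTO4, factors of the small and large subunit, fell 1.79-fold and 1.91-fold in adherent cells, with sphere effects of 0.08 ± 0.06 and -0.10 ± 0.08. Proteasome genes had 11 of 35 higher and 0 lower (median 0.24), and 19 higher without adherent shSigma replicate 3. PSMB2, a catalytic-core subunit, fell 1.7-fold in adherent cells, from 222, 210.3 and 217 CPM to 124, 128 and 130.1 CPM, with a sphere effect of -0.06 ± 0.06, and PSMD7 and PSMB6 had interactions of 0.62 ± 0.11 and 0.60 ± 0.11. Of 33 chaperones and unfolded protein response genes of the endoplasmic reticulum, 13 were higher and 0 lower (median 0.13, from 0.12 to 0.24 over the settings), with 18 rising and 7 falling in tumor spheres and 10 rising and 9 falling in adherent cells. PDIA4, a disulfide isomerase, rose 1.16-fold in adherent cells and 1.83-fold in tumor spheres. UGGT1, the folding sensor of glycoproteins, had an interaction of 0.66 ± 0.09. CANX, which encodes calnexin, rose 2.59-fold in tumor spheres from 1.21 to 1.70 CPM in shCtrl libraries. CANX overlaps CBY3 in the annotation, and its counts were low for an abundant chaperone.

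Mitochondrial DNA transcripts were higher by interaction for 5 of 13 and lower for 0 (median 0.52). All 5 were complex I subunits, and the count was 3 without adherent shSigma replicate 1, sphere shCtrl replicate 3 or sphere shSigma replicate 2 and 9 without adherent shSigma replicate 3. MT-ND4 (chromosome M, 10760 to 12137) stood at 10415, 10666 and 8831 CPM in sphere shCtrl and 15326, 18119 and 17430.2 CPM in sphere shSigma libraries, 1.7-fold higher, and at 16832, 12889 and 14015 CPM and 13932, 13829.9 and 16779.7 CPM in adherent shCtrl and shSigma libraries. Sphere shCtrl was the low group, and the adherent groups overlapped. MT-ND4L, which overlaps MT-ND4, had an interaction of 0.78 ± 0.21, and MT-ND2 one of 0.62 ± 0.19 that was lost with the replicate block and without adherent shSigma replicates 1 or 2, sphere shCtrl replicates 1 or 3 or sphere shSigma replicate 2. Among nuclear genes, the respiratory chain had 2 of 73 higher and 7 lower (median -0.06). Mitochondrial ribosome genes had 6 of 75 higher and 3 lower (median -0.03), and cytosolic ribosomal proteins had 1 of 73 higher and 5 lower (median -0.16, from -0.22 to -0.036 over the settings), all below the background of 12.7% and 15.6%. These counts were small and moved with the libraries. There were 4 lower respiratory chain genes without sphere shCtrl replicate 2 or sphere shSigma replicates 2 or 3, and 5, 7 and 8 higher ones without adherent shCtrl replicate 3, adherent shSigma replicate 3 and sphere shCtrl replicate 2. There was 1 lower mitochondrial ribosome gene without adherent shCtrl replicate 2, adherent shSigma replicate 2, sphere shCtrl replicate 3 or sphere shSigma replicate 2. Lower cytosolic ribosomal genes numbered between 1 and 9 without each of the 12 libraries. Higher cytosolic ribosomal genes numbered 2, 3 and 6 without adherent shSigma replicate 2, adherent shSigma replicate 3 and sphere shCtrl replicate 2. The signs of the respiratory chain and mitochondrial ribosome medians changed in 4 and 9 of 16 settings. For the complex I subunits NDUFV2 (sphere effect -1.33 ± 0.17, adherent -0.01 ± 0.18) and NDUFS4 (sphere -0.86 ± 0.08, adherent -0.28 ± 0.13), a fall was called in tumor spheres only. An adherent fall of NDUFS4 is not excluded. NDUFV2 overlaps NDUFV2-AS1 in the annotation, and its counts were low, at 4.11, 5.54 and 5.33 CPM in adherent shCtrl and 2.07, 2.33 and 1.64 CPM in sphere shSigma libraries. For the ATP synthase gene ATP5MC1 (adherent -0.81 ± 0.12, sphere -0.04 ± 0.08), a fall was called in adherent cells only. The interaction of NDUFS4 was lost without adherent shCtrl replicate 2, adherent shSigma replicate 3, sphere shCtrl replicate 2 or sphere shSigma replicates 2 or 3. Of the ribosomal genes, MRPS6 had an interaction of -0.67 ± 0.13, MRPL15 of 0.58 ± 0.11, MRPL20 of 0.53 ± 0.13, RPSA of 0.70 ± 0.15 and RPL13A of -0.56 ± 0.14. RPL31 (-0.59 ± 0.20, adjusted p = 0.0458) kept its call only without adherent shCtrl replicate 1 or sphere shCtrl replicate 1 and lost it with DESeq2 size factors and the replicate block.

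**Figure D4:**
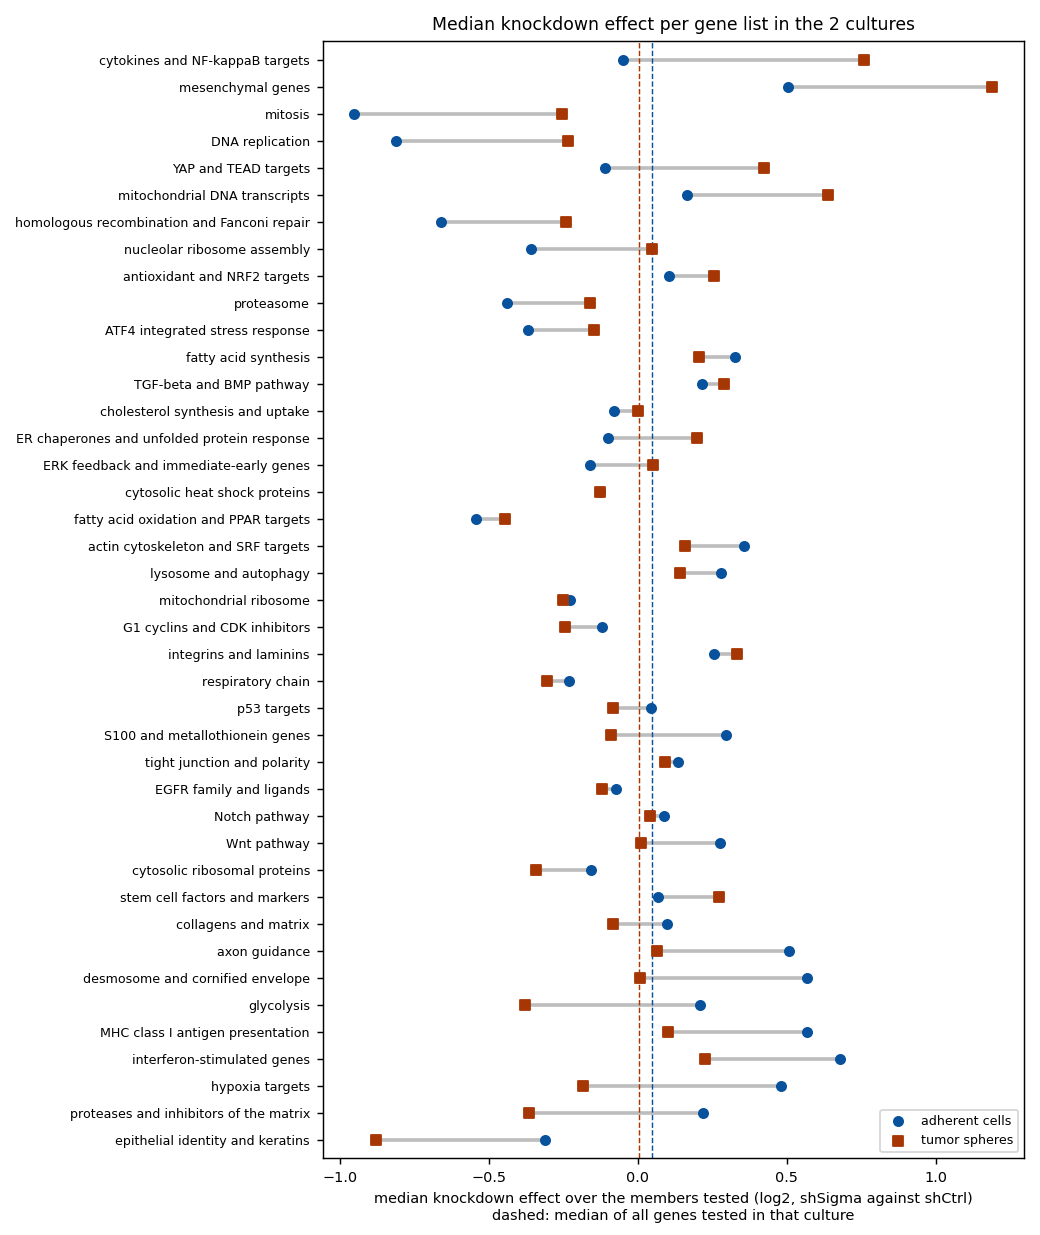
Median knockdown effect (log2 fold change of shSigma against shCtrl) over the tested members of each list, in adherent cells (circles) and tumor spheres (squares), ordered by median interaction, with dashed lines at the medians of all genes tested (0.05 in adherent cells and 0.01 in tumor spheres). Cytokines and NF-kappaB targets run from -0.05 in adherent cells to 0.76 in tumor spheres, and hypoxia targets from 0.48 to -0.18.

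Among fuel-use genes outside glycolysis, TXNIP and CPT1A crossed in opposite senses. TXNIP (ENSG00000265972, chromosome 1, 145992435 to 145996579) encodes a brake on glucose uptake that glucose itself induces. It rose from 4.88, 4.02 and 3.2 CPM to 30.1, 27.1 and 33.4 CPM in adherent cells and fell from 68.3, 72 and 81.1 CPM to 32.8, 37.6 and 35.5 CPM in tumor spheres. CPT1A (ENSG00000110090, chromosome 11, 68754620 to 68844410) encodes the gate of fatty acid entry into mitochondria. It fell from 71.8, 84.5 and 79.5 CPM to 30.8, 29.6 and 29.2 CPM in adherent cells and rose from 37.8, 36.1 and 32 CPM to 56.2, 59.1 and 56.4 CPM in tumor spheres. Neither gene's groups overlapped in either culture. The list that holds CPT1A was mixed, with 8 higher and 5 lower of 24 fatty acid oxidation and PPAR targets (median 0.05, from 0.014 to 0.17 over the settings). In fatty acid synthesis 4 of 17 were higher and 6 lower, although the median interaction was 0.22 (from 0.18 to 0.34 over the settings), and 7 were higher without adherent shCtrl replicate 1 or adherent shSigma replicate 3. SCD, the desaturase, rose 1.93-fold in adherent cells with a sphere effect of 0.03 ± 0.07. ELOVL6, an elongase, had an interaction of 0.67 ± 0.11, and AACS, which activates acetoacetate, one of -0.73 ± 0.16. In cholesterol synthesis and uptake 5 of 24 were higher and 0 lower (median 0.14, from 0.12 to 0.24 over the settings), with 3 higher without adherent shCtrl replicate 2, adherent shSigma replicate 1, sphere shCtrl replicate 3 or sphere shSigma replicates 1 or 3. HMGCS1 fell from 381, 351 and 342 CPM to 233, 231 and 265 CPM in adherent cells and rose from 277, 277 and 221 CPM to 304, 317 and 328 CPM in tumor spheres. ACAT2 and SQLE, other enzymes of that pathway, fell 1.73-fold and 1.64-fold in adherent cells, the only culture where their effect was called.

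Signalling lists were mixed in direction, but single ligands and feedback genes had interactions of their own. Of 34 ERK feedback and immediate-early genes 10 were higher and 5 lower (median 0.13, from 0.089 to 0.24 over the settings). The phosphatases DUSP4 and DUSP5 crossed in opposite senses. DUSP4 (ENSG00000120875, chromosome 8, 29333064 to 29350684) rose from 0.845, 0.634 and 1.22 CPM to 4.14, 3.53 and 3.81 CPM in adherent cells and fell from 8.08, 8.72 and 8.77 CPM to 5.6, 6.41 and 6.2 CPM in tumor spheres. DUSP5 (ENSG00000138166, chromosome 10, 110497907 to 110511533) fell from 132, 137 and 138 CPM to 89, 96.6 and 101 CPM in adherent cells and rose from 30.9, 32 and 32.4 CPM to 76.9, 73.6 and 76.3 CPM in tumor spheres. Groups did not overlap in either culture for either gene. The ephrin receptor gene EPHA4 rose 7.33-fold and 1.97-fold in adherent cells and tumor spheres. In the EGFR family 3 of 17 members were higher and 6 lower (median -0.11, from -0.19 to -0.051 over the settings). EGF (ENSG00000138798, chromosome 4, 109912883 to 110013766) encodes the ligand that the sphere medium also contains. It rose from 1.8, 2.24 and 1.74 CPM to 18.7, 18.3 and 21.3 CPM in adherent cells and from 9.43, 8.39 and 8.82 CPM to 16.5, 15.1 and 17.7 CPM in tumor spheres. TGFA, a second ligand, rose 3.06-fold in adherent cells with a sphere effect of 0.17 ± 0.09, and the receptor gene ERBB2 rose in adherent cells (log2 fold change 0.62 ± 0.20) and fell in tumor spheres (-0.69 ± 0.06).

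In the TGF-beta and BMP pathway 5 of 42 members were higher (11.9%, against 12.7% of all genes) and 9 lower (21.4%, against 15.6%). Their median was 0.16, and 9 and 10 were higher without adherent shCtrl replicate 1 and adherent shSigma replicate 3. The ligand gene TGFB3 fell 2.2-fold in adherent cells and rose 1.61-fold in tumor spheres. In the Wnt pathway 6 of 39 were higher and 9 lower (median -0.15, from -0.21 to -0.0011 over the settings), with 3 higher without adherent shSigma replicate 1 and 5 lower without replicate 1 of either sphere group. AXIN2 (ENSG00000168646, chromosome 17, 65528563 to 65561648) is a feedback target of beta-catenin. It stood at 3.4, 2.21 and 2.32 CPM in sphere shCtrl and 10.8, 9.33 and 9.96 CPM in sphere shSigma libraries, and at 0.883, 1.52 and 0.986 CPM and 1.29, 1.43 and 1.35 CPM in the adherent groups, which overlapped. The secreted Wnt inhibitors SFRP1 and DKK3 rose 2.28-fold and 6.36-fold in adherent cells, with sphere effects of -0.07 ± 0.06 and 1.35 ± 0.22. In the Notch pathway 5 of 28 were higher and 7 lower, with 3 higher without adherent shSigma replicate 1 or sphere shSigma replicate 3, and the median of -0.11 was 0.12 without adherent shCtrl replicate 1. HES1 (ENSG00000114315, chromosome 3, 194136148 to 194138732) encodes the main effector of Notch. It stood at 20.8, 24.1 and 16.4 CPM in sphere shCtrl and 4.59, 5.14 and 4.13 CPM in sphere shSigma libraries, 4.43-fold lower, and at 1.74 to 2.33 CPM in all adherent libraries. The ligand gene JAG1 changed by 0.87 ± 0.22 in adherent cells and -1.27 ± 0.13 in tumor spheres, and DTX4, a regulator of the pathway, by 1.47 ± 0.15 and -1.06 ± 0.17. Of 46 axon guidance genes 6 were higher and 11 lower (median -0.42, from -0.56 to -0.22 over the settings), 17 lower without adherent shCtrl replicate 3. NTN4, a netrin of basement membranes, fell 4.3-fold in adherent cells and 20.6-fold in tumor spheres, and SEMA3A, a secreted semaphorin, rose at least 9.88-fold above the floor in adherent cells and 2.17-fold in tumor spheres.

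The stem cell factors and markers were mixed, with 4 of 23 higher and 7 lower (median -0.23). The lower count was 4 without adherent shCtrl replicate 2 or sphere shSigma replicate 3 and the median 0.02 without adherent shCtrl replicate 1. CD24 (ENSG00000272398, chromosome 6, 106969831 to 106975627) encodes a surface glycoprotein used to sort stem-like cells. It rose from 21.9, 23 and 23.6 CPM to 491, 465 and 529.9 CPM in adherent cells and from 246, 282 and 272 CPM to 601, 642 and 627 CPM in tumor spheres. KIT (ENSG00000157404, chromosome 4, 54657267 to 54740783) encodes the stem cell factor receptor. It rose 45.3-fold in adherent cells and 3.85-fold in tumor spheres, and TERT, the catalytic subunit of telomerase, had a sphere effect of 1.27 ± 0.26 and an adherent effect of -1.16 ± 0.49 (adjusted p = 0.091). CD24 and KIT thus rose in both cultures, by more in adherent cells.

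Stress programs differed among themselves. ATF4 targets had 14 of 39 higher and 6 lower (median 0.22), 3 lower without adherent shSigma replicate 2. STC2, a secreted glycoprotein of this program, fell from 219, 238 and 257 CPM to 192, 199 and 180.5 CPM in adherent cells and rose from 85.7, 80.6 and 86.4 CPM to 197, 180.1 and 191 CPM in tumor spheres. GDF15, a stress-induced cytokine, fell 14.2-fold in tumor spheres from 25.4, 16.9 and 14.5 CPM and was at or under 0.237 CPM in adherent libraries, and its interaction was lost without adherent shSigma replicate 2. NUPR1, a stress-induced chromatin protein, rose 11.6-fold in adherent cells and 4.23-fold in tumor spheres, and its interaction (-1.44 ± 0.46, adjusted p = 0.0307) was lost with the replicate block and kept only without adherent shCtrl replicate 3 or adherent shSigma replicate 3. Antioxidant and NRF2 targets had 11 of 33 higher and 5 lower (median 0.27), 3 lower without adherent shCtrl replicates 2 or 3, adherent shSigma replicates 1 or 3, sphere shCtrl replicate 3 or sphere shSigma replicate 1. The aldo-keto reductase AKR1C1 rose 2.15-fold in adherent cells and 12.5-fold in tumor spheres, and its relative AKR1B10 rose 49.1-fold and 5.03-fold, so these relatives differed in the culture of the larger rise. GPX2, a glutathione peroxidase, was too low to be tested in adherent cells and not called in tumor spheres. Its interaction was lost without 7 of the 12 libraries, namely adherent shCtrl replicates 2 and 3, adherent shSigma replicates 1 and 3, sphere shCtrl replicates 1 and 3 and sphere shSigma replicate 1. Among p53 targets 1 of 22 was higher and 6 lower (median -0.08, of changed sign in 5 of 16 settings). There were 2 to 4 higher without adherent shCtrl replicate 1, adherent shSigma replicates 2 or 3, sphere shCtrl replicate 3 or sphere shSigma replicates 2 or 3. PHLDA3, an inhibitor of AKT, changed by 1.14 ± 0.34 in adherent cells and -0.76 ± 0.14 in tumor spheres.

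Of the remaining lists, cytosolic heat shock proteins had 2 of 18 higher (11.1%, against 12.7% of all genes) and 0 lower. Their median was 0.10, from 0.088 to 0.21 over the settings. There were 1 to 7 higher without any one library other than adherent shCtrl replicate 2. HSPH1 had an interaction of 0.52 ± 0.15 and AHSA1 one of 0.27 ± 0.09. The call of AHSA1 was lost with upper-quartile factors, the replicate block and 7 of the 12 libraries left out in turn, namely adherent shSigma replicates 1 and 2, sphere shCtrl replicates 1 and 3 and all sphere shSigma replicates. Lysosome and autophagy genes had 7 of 41 higher (17.1%) and 6 lower (14.6%), near the 12.7% and 15.6% of all genes. Their median was -0.02, of changed sign in 13 of 16 settings. There were 4 higher without adherent shCtrl replicate 2, adherent shSigma replicates 1 or 2, sphere shCtrl replicates 1 or 3 or sphere shSigma replicates 2 or 3. NPC2, which moves cholesterol out of lysosomes, rose from 61.8, 54.9 and 53.8 CPM to 96.4, 101 and 104 CPM in adherent cells and fell from 305, 366 and 273 CPM to 196, 204 and 197 CPM in tumor spheres. The protease gene CTSH did the same by 0.58 ± 0.09 and -0.80 ± 0.07 on the log2 scale, and OPTN, an autophagy receptor, had an interaction of 0.88 ± 0.11. S100 and metallothionein genes had 3 of 18 higher and 7 lower (median -0.08, of changed sign in 5 of 16 settings), with 1 higher without adherent shCtrl replicate 2, any sphere shCtrl replicate or sphere shSigma replicates 2 or 3. S100A14 (ENSG00000189334, chromosome 1, 153614255 to 153616986) encodes a calcium-binding protein of epithelia. It stood at 9.08, 10.5 and 7.41 CPM in sphere shCtrl and 2.32, 0.795 and 1.01 CPM in sphere shSigma libraries, and at most at 0.667 CPM in adherent libraries. S100A9, a calprotectin subunit, fell 3.77-fold in tumor spheres. MT1A, a metallothionein, rose 3.36-fold there, and its interaction (adjusted p = 0.0362) was lost with the replicate block and without adherent shCtrl replicates 2 or 3, any sphere shCtrl replicate or sphere shSigma replicates 2 or 3. The sphere shCtrl group again held the highest S100A14 and S100A9 levels of the 4 groups.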

How the data were processed

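RNA of 12 DU145 samples was sequenced, 3 for each pairing of hairpin and culture, from directional libraries. Per the labels and the study's methods, the authors aligned reads to GRCh38.p12 and counted them per gene with STAR (2.6.1c in the submitters' processing notes). The deposited values are raw counts per Ensembl gene, with no normalization, summing to between 16472722 and 26957777 per library. The annotation and the use of strand in counting are not given in the sources used here, and 26153 of 28747 identifiers had a symbol in GENCODE release 44, from which coordinates (GRCh38) were taken.

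Counts were tested with edgeR 4.0.16 in R 4.3.3 (quasi-likelihood test, TMM factors, filterByExpr with a minimum count of 10, Benjamini-Hochberg adjusted p under 0.05), the interaction on all 12 libraries and each culture's knockdown effect on its own 6. Errors of log2 fold changes are standard errors. Folds are ratios of mean CPM (counts scaled to the TMM-adjusted library total), and a group with at most 3 counts in each library was set to that floor, for counting error only. Members and lists were chosen with earlier results of these data known. Named genes were, per class the 5 with the largest difference of effects in log2(CPM + 1) among genes called with an absolute interaction over 1, at least 5 CPM in one group and separated libraries, and per list up to 3 called members. Some genes of the rule, the hairpin's target among them, are not reported here. Alternatives were DESeq2 1.42.0, limma 3.58.1, other factors, filters and thresholds, replicate blocks and each library left out. Promoters came from RefSeq (GRCh38.p14).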

Additional observations from a re-analysis of the deposited data

Results flagged for a closer look

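The knockdown effect differed between the cultures, by a test of that difference, for 4024 genes over the whole table, and 517 genes were called with opposite signs. The genes below were chosen among those called, so their calls are no further result. The values are interactions (log2, tumor spheres minus adherent cells), and those of genes with a group at the floor of 3 counts depend on the prior count. Among genes that rose in adherent cells and fell in tumor spheres it was -7.20 for CEMIP, -5.61 for P2RY6, -4.15 for NDRG1, -5.47 for LINC02274 and -5.41 for STEAP4. For the reverse direction it was 3.42 for FBLN1, 3.38 for SEMA3C, 3.02 for TFPI2, 2.82 for CCN2 and 2.53 for CCN1. Where only the adherent rise was called it was -3.95 for PSG5, -5.59 for MMP1, -2.93 for NAPSA, -2.55 for PSG4 and -3.24 for ITGAX. Where only the adherent fall was called it was 3.08 for FMN2, 6.26 for CA8, 3.44 for KCNK3, 2.01 for SLFNL1-AS1 and 1.47 for MCM10. With a rise called only in tumor spheres it was 2.68 for IL32, 3.92 for KLRC2, 2.34 for ITPR2, 2.28 for RRAD and 2.13 for COLGALT2. With a fall called only in tumor spheres it was -8.43 for PLN, -6.48 for CEACAM6, -5.46 for IGFBP3, -4.61 for PTHLH and -5.21 for SOX21-AS1. DNA replication had CLSPN at 1.69. Mitosis had CENPF at 1.14, CDC20 at 1.13 and ASPM at 1.18. Homologous recombination and Fanconi repair had BRCA1 at 1.13, BRCA2 at 1.47 and BLM at 1.15. G1 cyclins and CDK inhibitors had CDKN1A at -1.08, E2F7 at 0.88 and E2F8 at 1.13. Nucleolar ribosome assembly had UTP20 at 0.93, EBNA1BP2 at 1.08 and MRTO4 at 0.84. Cytosolic ribosomal proteins had RPL13A at -0.56, RPL31 at -0.59 and RPSA at 0.70. ATF4 integrated stress response had STC2 at 1.49, NUPR1 at -1.44 and GDF15 at -3.42. ER chaperones and unfolded protein response had PDIA4 at 0.65, CANX at 1.61 and UGGT1 at 0.66. Cytosolic heat shock proteins had HSPH1 at 0.52 and AHSA1 at 0.27. Cholesterol synthesis and uptake had HMGCS1 at 0.85, SQLE at 0.69 and ACAT2 at 0.69. Fatty acid synthesis had SCD at -0.92, ELOVL6 at 0.67 and AACS at -0.73. Fatty acid oxidation and PPAR targets had ANGPTL4 at 1.79, CPT1A at 2.10 and TXNIP at -3.97. Glycolysis had SLC2A3 at -3.71, HK2 at -1.36 and PFKFB4 at -2.16. Hypoxia targets had LOX at -2.25 and STC1 at -3.26. Respiratory chain had NDUFS4 at -0.58, NDUFV2 at -1.32 and ATP5MC1 at 0.77. Mitochondrial ribosome had MRPL15 at 0.58, MRPL20 at 0.53 and MRPS6 at -0.67. Mitochondrial DNA transcripts had MT-ND2 at 0.62, MT-ND4 at 0.74 and MT-ND4L at 0.78. Interferon-stimulated genes had IFITM1 at -3.17, OAS1 at -4.78 and OAS2 at -4.74. MHC class I antigen presentation had B2M at -0.65, NLRC5 at -1.09 and ERAP1 at 0.78. Cytokines and NF-kappaB targets had CXCL3 at 2.62 and CCL20 at 2.32. Epithelial identity and keratins had GRHL2 at -4.93, KRT4 at -4.58 and RAB25 at -8.81. Desmosome and cornified envelope had DSG3 at -4.57, DSP at -1.15 and PPL at -1.23. Tight junction and polarity had CLDN1 at 1.71 and CLDN4 at -2.78. Mesenchymal genes had ZEB1 at 3.57, ZEB2 at 3.39 and ENG at -2.75. Collagens and matrix had THBS1 at 2.17. Integrins and laminins had ITGA2 at -2.01, ITGA11 at -1.96 and ITGB4 at -1.84. Proteases and inhibitors of the matrix had SERPINB5 at -2.81 and ADAM8 at -2.25. YAP and TEAD targets had TGFB2 at 2.10 and TNNT2 at -3.63. Actin cytoskeleton and SRF targets had ACTA2 at -1.52, FHL2 at -2.20 and PFN1 at 0.52. ERK feedback and immediate-early genes had DUSP4 at -2.57, DUSP5 at 1.76 and EPHA4 at -1.89. EGFR family and ligands had ERBB2 at -1.32, EGF at -2.45 and TGFA at -1.44. TGF-beta and BMP pathway had TGFB3 at 1.81. Wnt pathway had DKK3 at -1.32, SFRP1 at -1.26 and AXIN2 at 1.66. Notch pathway had JAG1 at -2.14, HES1 at -2.14 and DTX4 at -2.53. p53 targets had PHLDA3 at -1.90. Antioxidant and NRF2 targets had AKR1B10 at -3.26, AKR1C1 at 2.51 and GPX2 at -2.43. Proteasome had PSMB2 at 0.71, PSMB6 at 0.60 and PSMD7 at 0.62. Lysosome and autophagy had CTSH at -1.38, NPC2 at -1.48 and OPTN at 0.88. Stem cell factors and markers had KIT at -3.55, CD24 at -3.22 and TERT at 2.42. Axon guidance had NTN4 at -2.26 and SEMA3A at -2.92. S100 and metallothionein genes had S100A9 at -3.36, S100A14 at -3.25 and MT1A at 1.43.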

How the results depend on the processing

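Counts of calls stayed within 1.5 times of the main ones with DESeq2 (3702 interaction calls, 3501 of them shared with the 4024), limma (4024), other scaling factors, filters and a single fit for both cultures, except as follows. With an adjusted p under 0.01 there were 2508 interaction calls (1119 with a higher and 1389 with a lower effect in tumor spheres), 1832 culture-dependent genes in place of 2749, 261 of opposite effect and 560 of the same direction. An absolute interaction over 1 left 1210 (354 and 856). An absolute log2 fold change over 1 in the culture of the call left 1190 culture-dependent genes, of which 51 were opposite, 632 adherent only and 507 sphere only, and 236 of the same direction. These thresholds are stricter by construction. Within 1.5 times, the larger direction still changed, with 2047 higher and 1998 lower with DESeq2 size factors and 1888 and 1814 with DESeq2. The order of the classes called in 1 culture only changed too. Adherent-only and sphere-only genes numbered 1052 and 1180 in the main fits, and 1284 and 965 with a single fit for both cultures. With at least 10 counts in every library they numbered 1107 and 1026.

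Replicate numbers did not pair the samples (correlation of same-numbered deviations -0.67, -0.03 and -0.87 in adherent cells and 0.06, -0.01 and -0.13 in tumor spheres). A replicate block shared by the groups gave 3428 interaction calls and 327 opposite genes. A replicate block within each culture gave 2495 (1082 and 1413), 1794 culture-dependent genes, 327 opposite, 614 adherent only and 631 of the same direction.

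Leaving out 1 library gave 3232 to 4691 interaction calls, 1499 to 2738 higher and 1700 to 2053 lower, 2232 to 3182 culture-dependent genes, 364 to 593 opposite, 762 to 1346 adherent only, 886 to 1254 sphere only and 849 to 1342 of the same direction. Leaving out adherent shCtrl replicate 1 and adherent shSigma replicate 3 together, chosen after seeing the data, gave 4918 (2468 and 2450). Named genes were checked with DESeq2, other scaling factors, the replicate block shared by the groups and libraries left out. There they kept direction and call in 2313 gene and setting pairs and lost the call in 101, none reversing. They were not checked with the block within each culture, other filters or stricter thresholds. Genes at the floor allow only bounds at this depth.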
